A study of Pinus pinaster with 36 samples.

Results

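This account covers 85 transcripts of maritime pine whose levels differed between ammonium and nitrate feeding in the needles or in the stem while their root levels were close under both nitrogen forms. They were 85 of the 224081 transcript identifiers measured, and they were chosen by their values. In needles or in stem, the mean over the 12 libraries had to be 2 to 500 CPM (counts scaled so that each library has the same total), the 6 ammonium and 6 nitrate libraries could not overlap, and their means had to differ at least 1.5-fold in either direction. In roots the mean had to be at least 1 CPM, and the ratio of the ammonium mean to the nitrate mean had to lie between 0.8 and its inverse, called the root window here. The nitrogen differences in the organ that chose a transcript, and the root ratios, are therefore descriptions, from which nothing is inferred.

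RNA sequencing was done on needles, stem and roots of Pinus pinaster seedlings of the Segura-Alcaraz provenance, 2 months old. Nitrogen was given either as ammonium chloride or as potassium nitrate, at 8 mM in 40 mL of solution each week over 1 month. Each form was given in air with 720 or with 400 ppm CO2. The 12 groups were thus ammonium at 720 ppm, ammonium at 400 ppm, nitrate at 720 ppm and nitrate at 400 ppm, in each of 3 organs, with 3 biological replicates per group. A replicate was a pool of 12 seedlings, so differences between single seedlings cannot be seen. Chloride came with ammonium and potassium with nitrate, so the nitrogen form cannot be told apart from these ions. Each organ was sequenced whole, and fewer cells of a type and less RNA per cell cannot be told apart in such samples.

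Plants take up both nitrogen forms through their roots. Nitrate is reduced to nitrite by nitrate reductase and then to ammonium by nitrite reductase, in roots or in leaves, and ammonium enters amino acids through glutamine synthetase and glutamate synthase, which in ammonium-fed plants happens mostly in the roots. Many conifers of acidic forest soils, maritime pine among them, are known to use ammonium readily. The identifiers carry no gene names or descriptions and no sequences were at hand, so no transcript below could be assigned a function, and lists of nitrogen transporters, assimilation enzymes and photosynthesis genes could not be matched to them. Transcript lengths were not known either, so levels are compared between samples and not between transcripts.

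Library totals ran from 73414247 to 134836160 counts. In 7 libraries over 65% of the counts above 20 were even numbers. These low-complexity libraries were 2 of the 6 ammonium and 2 of the 6 nitrate libraries of the needles, and 2 of the 6 ammonium and 1 of the 6 nitrate libraries of the stem, with none in roots. Without them all 85 transcripts kept their direction in the organ that chose them, and 54 kept a difference of at least 1.5-fold. The direction was fixed by the rule, since groups that do not overlap cannot change order when libraries are left out.

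Needles supplied 37 of the transcripts, 15 with higher and 22 with lower levels under ammonium. Stem supplied 48, 25 with higher and 23 with lower levels under ammonium. No transcript met the rule in both. The shoot part of the rule was itself rare. In needles, 0.239% of the 43528 transcripts in the level range met it with higher and 0.269% with lower values under ammonium, and in stem 0.363% and 0.307% of 50196 did so. Of the 221 needle transcripts that met it, 78 had a root ratio below the window, 59 one above it and 47 a root mean under 1 CPM, which left the 37. Of the 336 stem transcripts, 127 had a root ratio below the window, 146 one above it and 15 a root mean under 1 CPM, which left the 48.

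The membership depended on how libraries were scaled. On library sizes scaled by TMM, edgeR's trimmed mean of M values, the same rule gave 80 transcripts, 46 of them among the 85. The split then was 8 higher and 11 lower in needles and 43 higher and 19 lower in stem, with 1 transcript in both organs. Of the 39 that dropped out, 27 had ammonium and nitrate libraries that overlapped. Overlap was checked before fold and root ratio, so these may have failed a later part too. All 85 kept their direction in the organ that chose them under this scaling. Leaving out 1 library also moved the number, since 5 columns separate from 6 more easily than 6 do. It was 128 without needles ammonium 400 ppm replicate 3, 159 without stem ammonium 400 ppm replicate 3, 131 without stem ammonium 720 ppm replicate 1 and 128 without stem nitrate 400 ppm replicate 3. Across the 36 such omissions, 42 of the 85 were kept every time, and none was kept in fewer than 29. Omissions from the shoot organ that did not choose a transcript could not remove it. Those from the choosing organ could not make its groups overlap. The counts therefore include omissions that could not act.

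The differences in the choosing organ were mostly modest. The median fold was 1.69, 18 transcripts reached 2-fold, 26 lay under 1.6-fold and the highest fold was 4.48. Most were also low in level, with 64 of the 85 under 10 CPM and 4 over 100 CPM in the organ that chose them. The plot of ammonium over nitrate ratios by organ shows the 85 transcripts in each organ, with the root ratios inside the window by the rule.

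**Figure D1:**
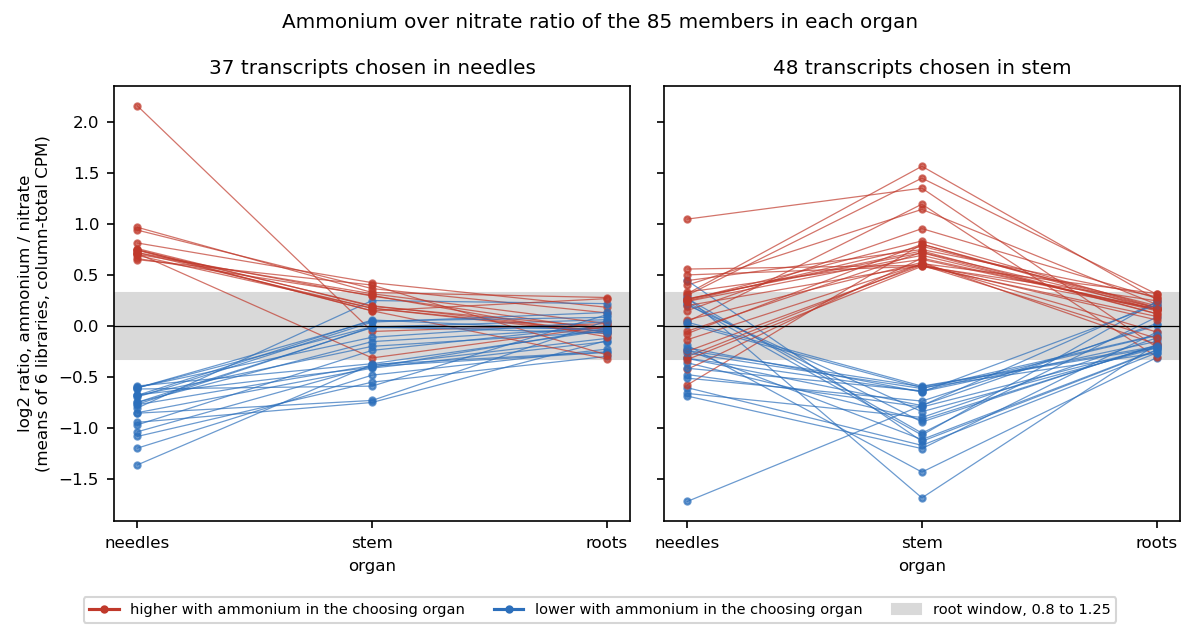
Log2 ratio of the ammonium mean to the nitrate mean (6 libraries each, CPM) of each of the 85 transcripts in needles, stem and roots; each line is 1 transcript, the left panel holds the 37 chosen in needles and the right panel the 48 chosen in stem. The lines leave the grey band in the choosing organ, up to a fold of 4.48, and all lie in it (the root window) in roots, as the rule requires.

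Among the 15 needle transcripts higher with ammonium, ratios ran from 1.57 to 4.48 with a median of 1.68, and PpCO2_84553 stood far above the others. Its needle level was 4.48 to 14.2 CPM (median 8.25) with ammonium, against 0.880 to 3.46 CPM (median 1.81) with nitrate. The 3 nitrate libraries at 720 ppm were all above the 3 at 400 ppm, at 2.14, 2.14 and 3.46 CPM against 0.880, 1.36 and 1.49 CPM. The ammonium over nitrate ratio was 2.95 at 720 ppm and 7.67 at 400 ppm CO2. In stem this transcript was close to absent, with 0 to 0.819 CPM (median 0.272) and 0.117 to 0.416 CPM (median 0.363) under ammonium and nitrate, and in roots it was at 3.23 to 6.08 CPM (median 3.89) with ammonium and 2.40 to 6.66 CPM (median 4.04) with nitrate. The root groups overlapped almost completely. Without the low-complexity libraries the needle ratio was 3.23 in place of 4.48.

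The next of this group were smaller differences at low levels. PpCO2_97685 had 2.57 to 4.06 CPM (median 3.24) in ammonium needles and 1.14 to 2.31 CPM (median 1.57) in nitrate needles, a ratio of 1.96. For PpCO2_24033 the values were 4.36 to 7.86 CPM (median 5.39) with ammonium and 2.18 to 4.05 CPM (median 2.84) with nitrate, a ratio of 1.92. PpCO2_106181 read 2.09 to 4.00 CPM (median 2.67) against 0.961 to 1.98 CPM (median 1.74), ammonium against nitrate, a ratio of 1.76. The gap between the ammonium and nitrate libraries was narrow in all of these, at 0.269, 0.305 and 0.107 CPM. PpCO2_128797, the fifth by fold, had 9.45 to 15.4 CPM (median 11.9) in ammonium needles, against 6.77 to 8.97 CPM (median 6.96) in nitrate needles, a ratio of 1.70. Its highest nitrate value came from nitrate 720 ppm replicate 2. The most abundant of the 15 was PpCO2_178810, named for its level after its values were seen, with 155 to 280.1 CPM (median 186) under ammonium and 115 to 129 CPM (median 125) under nitrate.

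The 22 needle transcripts lower with ammonium had ratios of 0.390 to 0.666, with a median of 0.592. PpCO2_128841 led them, at 3.36 to 8.19 CPM (median 6.35) in ammonium needles, against 13.6 to 17.2 CPM (median 15.3) in nitrate needles. No ammonium library came within 5.39 CPM of a nitrate library, and the ratio was 0.389 at 720 ppm and 0.390 at 400 ppm CO2. It was 0.456 without the low-complexity libraries. In the other organs the level was lower, with means of 1.36 ± 0.533 and 1.76 ± 0.196 CPM in ammonium and nitrate stem and 1.4 ± 0.282 and 1.67 ± 0.262 CPM in ammonium and nitrate roots (SD, n = 6 each).

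PpCO2_50767 followed, with 1.91 to 2.24 CPM (median 2.05) under ammonium and 4.30 to 5.13 CPM (median 4.72) under nitrate. PpCO2_50770 and PpCO2_50769, close to it in number, differed in the same way. The first had 1.70 to 3.22 CPM (median 2.97) with ammonium and 5.27 to 6.57 CPM (median 5.69) with nitrate, and the second 2.08 to 3.29 CPM (median 2.81) and 5.07 to 6.69 CPM (median 5.54). Their needle ratios were 0.437, 0.473 and 0.488 in the order named. PpCO2_81542, the fifth of the group, read 1.32 to 2.60 CPM (median 2.19) with ammonium, against 2.76 to 5.67 CPM (median 4.06) with nitrate, a ratio of 0.511. Its groups were the closest of the 5, since the highest ammonium library and the lowest nitrate library were 0.156 CPM apart.

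In the stem, the 25 transcripts higher with ammonium had ratios of 1.5 to 2.97 with a median of 1.65. PpCO2_105322 stood first, with 2.97 to 6.27 CPM (median 5.16) in ammonium stem and 0.351 to 2.23 CPM (median 1.84) in nitrate stem. Its ratio was 2.97, and 2.62 without the low-complexity libraries. PpCO2_96270 followed with 2.22 to 5.33 CPM (median 4.03) under ammonium and 1.00 to 2.09 CPM (median 1.44) under nitrate, and PpCO2_105312 with 2.15 to 5.43 CPM (median 3.56) and 0.104 to 1.99 CPM (median 1.6). All 3 were low in needles, where none of their means exceeded 1.08 CPM with either nitrogen form. PpCO2_96270 averaged 2.77 CPM over the 12 stem libraries, against 12.4 CPM over the 12 root libraries, and PpCO2_105312 2.5 CPM against 23.8 CPM.

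PpCO2_147252 had a similar pattern, with 2.79 to 6.71 CPM (median 3.61) in ammonium stem and 0.982 to 2.32 CPM (median 1.87) in nitrate stem. Its highest value came from ammonium 400 ppm replicate 2, a low-complexity library, and without these libraries the stem ratio was 1.99 in place of 2.29. This transcript averaged 0.0801 CPM over the 12 needle libraries and 28.4 CPM in roots. PpCO2_55839 was different in scale, with 126 to 213 CPM (median 174) under ammonium and 44.8 to 108 CPM (median 82.7) under nitrate. Its ratio of 2.21 was the largest among the 4 transcripts over 100 CPM in the choosing organ, and it reached 589 CPM on average in roots.

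Among the 23 stem transcripts lower with ammonium, ratios were 0.311 to 0.666 with a median of 0.559. PpCO2_24024 had 1.73 to 4.21 CPM (median 3.23) in ammonium stem and 4.37 to 19.9 CPM (median 8.52) in nitrate stem. All of its 3 nitrate libraries at 720 ppm, at 10.3, 13.7 and 19.9 CPM, lay above the 3 at 400 ppm, at 4.37, 5.91 and 6.76 CPM, and the ratio was 0.269 at 720 ppm and 0.420 at 400 ppm CO2. Over both it was 0.311, and 0.445 without the low-complexity libraries. The 19.9 CPM came from nitrate 720 ppm replicate 1, a low-complexity library. The lowest of the nitrate libraries was only 0.167 CPM above the highest ammonium library.

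PpCO2_115560 and PpCO2_115553 also differed between the stem groups. PpCO2_115560 had 2.78 to 6.09 CPM (median 3.04) with ammonium and 6.68 to 13.2 CPM (median 10.7) with nitrate, and PpCO2_115553 had 3.32 to 9.20 CPM (median 6.89) and 9.78 to 19.5 CPM (median 14.4). PpCO2_56983 and PpCO2_56985, a pair with neighbouring numbers, were the other 2 of the leading 5. The first read 0.916 to 3.47 CPM (median 2.23) in ammonium stem, against 3.64 to 6.92 CPM (median 4.91) in nitrate stem, and the second 0.835 to 6.86 CPM (median 4.16), against 7.52 to 12.9 CPM (median 8.51). In needles all 5 averaged under 1 CPM with either form. The plot of values by library shows the 2 leading transcripts of each organ and direction.

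**Figure D2:**
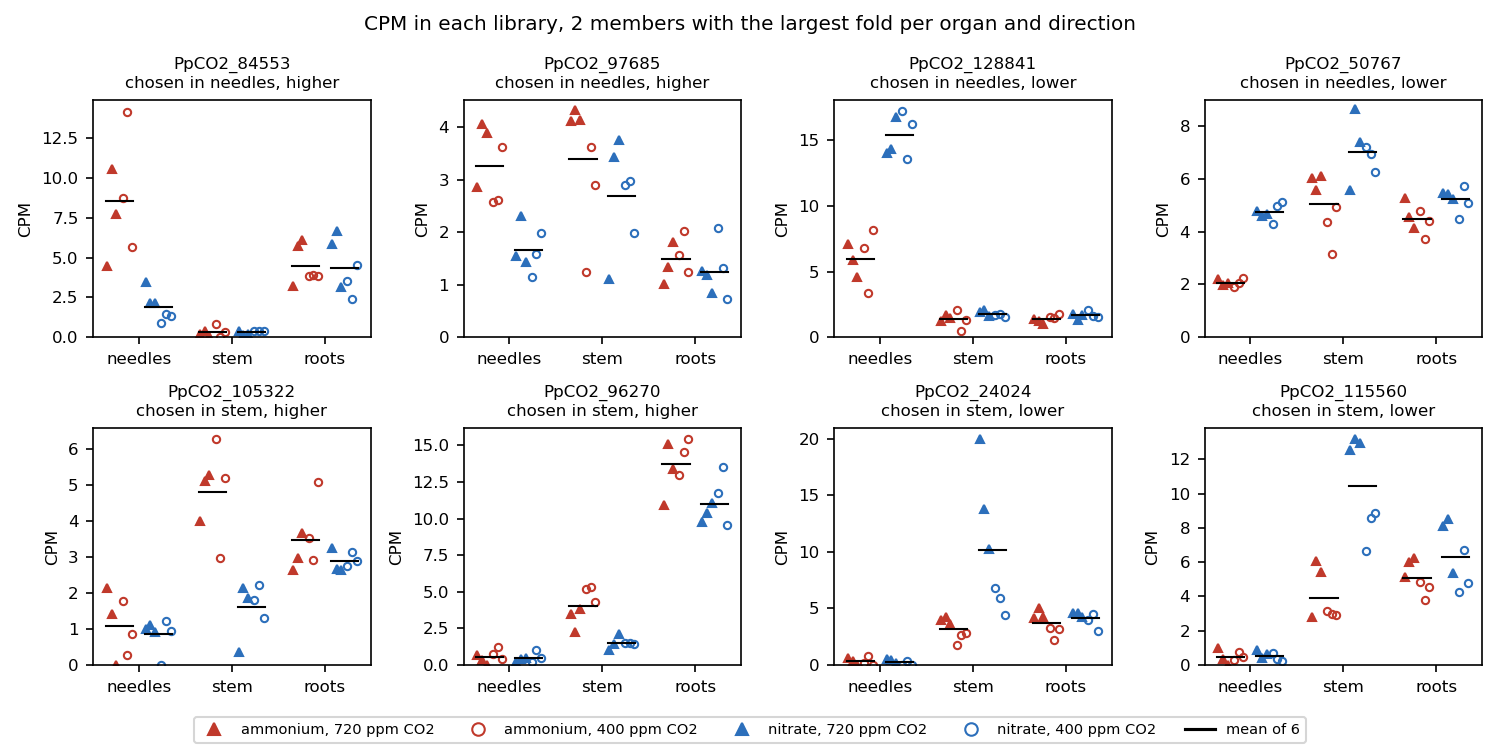
CPM in each of the 36 libraries for the 2 transcripts with the largest fold per organ and direction; red marks are ammonium and blue marks nitrate, triangles 720 ppm and circles 400 ppm CO2, and bars are means of 6 libraries. The red and blue marks separate in the choosing organ and overlap in roots, and in PpCO2_24024 the 3 nitrate stem libraries at 720 ppm, from 10.3 to 19.9 CPM, spread furthest.

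The ratio in the choosing organ was not always of the same size at both CO2 levels. At least 1.5-fold at both was found for 8 of the 15 higher and 12 of the 22 lower needle transcripts, and for 12 of the 25 higher and 17 of the 23 lower stem transcripts. The others reached it at 1 of the CO2 levels, and none fell short at both. At the threshold itself little separated members from others. PpCO2_144812 was inside with a needle fold of 1.501 and PpCO2_100047 outside with 1.495, and in stem PpCO2_72309 was inside with 1.502 and PpCO2_169679 outside with 1.498. Between 1.5-fold and 1.6-fold there were 9 needle and 17 stem members, against 35 and 38 transcripts between 1.4-fold and 1.5-fold that met all other parts of the rule.

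Many of the 85 had neighbouring numbers. With a gap of at most 10 between numbers, a limit chosen after the values were seen, 32 of them fell into 11 runs of the same organ and direction, and 53 stood alone. The sources used here do not say what neighbouring numbers share. Counts of transcripts with similar sequence could be shared between identifiers, so the members of a run may not be independent observations. The 85 form 64 runs and single identifiers.

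The largest run held PpCO2_128794, PpCO2_128796, PpCO2_128797, PpCO2_128800 and PpCO2_128805, with needle ratios of 1.62 to 1.70 and root ratios of 0.962 to 1.02. All 7 other identifiers between them were in the level range, and their needle ratios were 0.912 to 1.00. Members of this run thus alternated with identifiers whose needle levels were close under both nitrogen forms. Across the 12 needle libraries the 5 moved together, with correlations of 0.534 to 0.878 between pairs after the group means had been taken out (a description over libraries they share). PpCO2_128796 was the highest of them, with 23.7 to 37.0 CPM (median 26.4) in ammonium needles and 15.3 to 21.2 CPM (median 17.1) in nitrate needles.

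A second needle run, lower with ammonium, held PpCO2_177194, PpCO2_177195, PpCO2_177197 and PpCO2_177198, with needle ratios of 0.59 to 0.63. The 1 other identifier between them had a ratio of 0.642. Their stem ratios were 0.901 to 1.04 and their root ratios 0.971 to 1.05, and their ammonium and nitrate libraries overlapped in both of those organs. PpCO2_177197 had 21.6 to 37.3 CPM (median 28.5) in ammonium needles and 39.3 to 60.3 CPM (median 47.6) in nitrate needles, against 33.9 to 54.6 CPM (median 42.0) and 34.9 to 48.3 CPM (median 44.7) in ammonium and nitrate stem. PpCO2_50766 belonged with PpCO2_50767, PpCO2_50769 and PpCO2_50770, whose needle ratios together were 0.437 to 0.556. That run was looser, with pair correlations of -0.32 to 0.498.

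In stem, the run of PpCO2_26742, PpCO2_26743, PpCO2_26747 and PpCO2_26749 had ratios of 1.62 to 1.79. Here the 4 identifiers in between, not members, had similar ratios of 1.53 to 1.79. PpCO2_115553, PpCO2_115557 and PpCO2_115560 had stem ratios of 0.371 to 0.477, and the 4 identifiers in range between them had 0.478 to 0.514. In both spans the rule therefore kept some of a stretch of identifiers that differed alike in stem. The plot of neighbouring identifiers sets 4 such spans side by side.

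**Figure D3:**
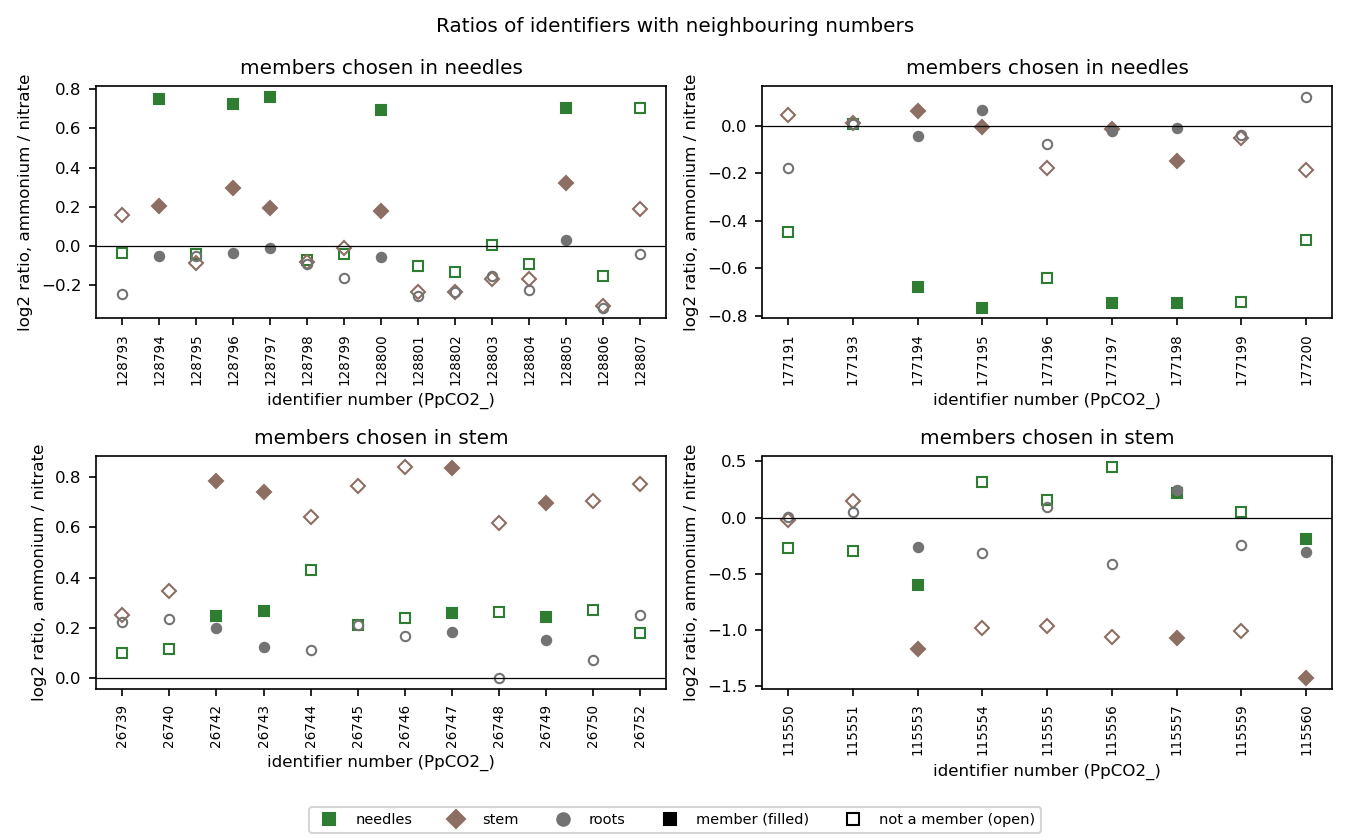
Log2 ratio of the ammonium mean to the nitrate mean in needles (squares), stem (diamonds) and roots (circles) for identifiers in 4 numbered spans, with members filled and other identifiers in the level range open. In the upper left span the 5 members at 1.62 to 1.70 alternate with identifiers near 1 in needles, and in the lower panels the identifiers between the members have similar stem ratios.

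Roots held these transcripts at levels of their own. Over the 12 root libraries their means ran from 1.37 to 589 CPM with a median of 6.78, and 36 of the 85 were highest in roots, 29 in stem and 20 in needles. On TMM-scaled values the numbers were 30, 19 and 36, so the order of organs depended on scaling. The root ratio of ammonium to nitrate had a median of 0.992, and 40 of the 85 ratios were over 1. On TMM-scaled values the median was 0.936, 31 were over 1 and 76 lay in the root window, since that scaling moved the log2 ratio by -0.08 in roots, 0.01 in stem and 0.03 in needles. Without that scaling, the median root ratio was 1.12 in the stem transcripts higher with ammonium, with 20 of 25 over 1. In those lower with ammonium it was 0.885, with 6 of 23 over 1. Root ratios of the stem sets thus leaned as in stem, within the window. In the needle sets the medians were 0.992 for higher and 0.979 for lower, with 6 of 15 and 8 of 22 over 1.

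A root ratio within the window was an average over CO2 levels for some. In 59 transcripts it lay in the root window at 720 and at 400 ppm CO2. It left the window only at 720 ppm in 12 and only at 400 ppm in 14, with ratios of 0.700 to 1.27 at 720 ppm and 0.740 to 1.33 at 400 ppm. By edgeR's quasi-likelihood test at an adjusted p under 0.05, 6 of the 85 were called for nitrogen in roots, all lower with ammonium, where 16.4% of all 156123 transcripts tested were called. The rule used this contrast, so nothing is read from that count. The 6 were PpCO2_115553, PpCO2_50770, PpCO2_24030, PpCO2_147252, PpCO2_50769 and PpCO2_165939, and their root ratios were 0.801 to 0.837.

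At the low edge of the window, PpCO2_165939 was inside with a root ratio of 0.801 and PpCO2_24029 outside with 0.795. At the high edge, PpCO2_144707 was inside with 1.249 and PpCO2_94319 outside with 1.252. In 2 of the 85 the root groups did not overlap either, as in 2.19% of the 45452 transcripts that met the root part of the rule, and in both the direction was opposite to that of the needles. Since the rule used the root ratio, nothing is read from that count. PpCO2_123591 had 1.2 to 3.18 CPM (median 2.47) in ammonium needles and 3.45 to 4.45 CPM (median 3.85) in nitrate needles, but 7.72 to 9.04 CPM (median 7.88) in ammonium roots and 6.86 to 7.67 CPM (median 7.35) in nitrate roots. PpCO2_165939 had 3.24 to 5.22 CPM (median 3.72) with ammonium and 1.90 to 3.20 CPM (median 2.32) with nitrate in needles, but 3.19 to 3.99 CPM (median 3.61) with ammonium and 4.01 to 5.26 CPM (median 4.42) with nitrate in roots.

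Whether the needle transcripts also responded in the stem, and the stem transcripts in needles, could be tested, since those libraries were not used to choose them, although the series design describes organs taken from pooled seedlings, so that needle and stem libraries may share plants. In stem, 0 of the 37 needle transcripts were called for nitrogen by edgeR, where 0.28% of all 137689 transcripts tested were, and limma-voom called 0 (0.312% of all) and DESeq2 1 (1.01% of the transcripts to which it gave an adjusted p). At an unadjusted p under 0.05 there were 13, in 8 runs and single identifiers, where 5.2% of all transcripts tested reached that level. All 13 had the direction they had in needles, and 29 of the 37 had it by the sign of the fitted change. The median log2 fold change in stem was 0.19 over the 15 that were higher in ammonium needles, -0.30 over the 22 that were lower there and -0.03 over all transcripts tested.

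The lowest adjusted p among these, 0.154, belonged to PpCO2_50770, with 3.67 to 7.96 CPM (median 5.96) in ammonium stem and 8.06 to 9.89 CPM (median 8.86) in nitrate stem. Its stem groups did not overlap, as in 1.32% of all transcripts in the level range there, and the fitted log2 fold change was -0.55 (SE 0.13). PpCO2_28908 and PpCO2_91874 had larger stem differences than that, at -0.61 (SE 0.16) and -0.71 (SE 0.22) on the log2 scale, and overlapping groups. PpCO2_24030 and PpCO2_24033, higher in ammonium needles, differed in stem by 0.42 (SE 0.14) and 0.39 (SE 0.14) on the same scale. By contrast PpCO2_84553 had -0.06 (SE 1.01) at levels too low for a statement. In stem, the ratios of 22 of the 37 lay within the bounds set for roots, and 5 averaged under 2 CPM there.

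In needles, edgeR called 1 of the 48 stem transcripts for nitrogen, PpCO2_38005, where 0.374% of all 117123 transcripts tested were called. Its needle level was 40.8 to 60.0 CPM (median 48.1) with ammonium and 31.8 to 36.7 CPM (median 32.5) with nitrate, without overlap. Ammonium needles were higher by a fitted log2 difference of 0.59 (SE 0.09) with an edgeR adjusted p of 0.00457, and the level was higher in 6 of 6 ammonium libraries than in any nitrate library. Without the low-complexity libraries the adjusted p by edgeR was 0.0746. In the stem the same transcript had 21.9 to 27.6 CPM (median 25.4) and 13.9 to 19.1 CPM (median 16.3) under ammonium and nitrate, a ratio of 1.51, and in roots 35.6 to 46.7 CPM (median 39.6) and 35 to 48.1 CPM (median 46.6), a ratio of 0.921. It missed membership through needles with a ratio of 1.48.

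At an unadjusted p under 0.05, 12 of the 48 stem transcripts differed in needles, in 9 runs and single identifiers, where 7.0% of all transcripts tested reached that level. Of the 12, 10 had the direction they had in stem, among them PpCO2_55839 with a log2 fold change of 0.42 (SE 0.12) and all 4 of the run from PpCO2_26742 to PpCO2_26749 with 0.28 to 0.30. The median log2 fold change in needles was 0.27 over the 25 that were higher in ammonium stem, -0.20 over the 23 that were lower there and -0.01 over all transcripts tested. By the sign of the fitted change, 31 of the 48 had the same direction in needles as in stem. Among the 12, the exceptions to the shared direction were PpCO2_144707 and PpCO2_115334, both abundant. PpCO2_144707 had 538 to 1015 CPM (median 732) in ammonium needles and 769 to 1031 CPM (median 931) in nitrate needles, against 174 to 208 CPM (median 187) and 108 to 149 CPM (median 120.5) in ammonium and nitrate stem. PpCO2_115334 had 191 to 262 CPM (median 228) and 238 to 328 CPM (median 283) in ammonium and nitrate needles, against 104 to 162 CPM (median 134) and 65.3 to 101 CPM (median 89.1) in ammonium and nitrate stem. The stem groups of both separated with ammonium higher, and their needle groups overlapped with ammonium lower on average.

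Of the 48, 23 averaged under 2 CPM in needles and 1 over 500 CPM, so 24 were in the level range there. The needle groups did not overlap in 2 of the 48, PpCO2_38005 in the range and PpCO2_109742 below it, where 1.12% of all transcripts in the range had needle groups that did not overlap. PpCO2_109742, chosen in stem as lower with ammonium, had 0 to 0.297 CPM (median 0.142) in ammonium needles and 0.362 to 0.556 CPM (median 0.435) in nitrate needles.

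The response to CO2 was not named in the rule, but in the organ that chose a transcript the libraries of both CO2 levels together had to separate by nitrogen form, so the rule bore on the spread across CO2 in those libraries. In needles, edgeR called 2 of the 85 for 720 against 400 ppm CO2, both higher at 720 ppm, where 0.561% of all transcripts tested were called, and 14 reached an unadjusted p under 0.05, where 10.4% of all did. The 14 lay in 10 runs and single identifiers, and 11 of them were higher at 720 ppm. The median log2 fold change was 0.08 over the 85 and 0.02 over all transcripts tested. Both of the called transcripts had been chosen in needles. PpCO2_128800 had 7.79 to 17.0 CPM (median 11.4) at 720 ppm and 6.14 to 11 CPM (median 8.86) at 400 ppm, over both nitrogen forms, a fitted log2 difference of 0.59 (SE 0.10) with an edgeR adjusted p of 0.0209. PpCO2_21579 had 9.35 to 14.3 CPM (median 11.5) at 720 ppm and 5.18 to 15.6 CPM (median 8.73) at 400 ppm, a log2 difference of 0.47 (SE 0.10) with an edgeR adjusted p of 0.0495.

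The values of both transcripts overlapped between the CO2 levels. Within ammonium needles PpCO2_128800 had 13.0, 15.5 and 17.0 CPM at 720 ppm and 9.95, 10.3 and 11 CPM at 400 ppm, and within nitrate needles 7.79, 9.39 and 9.75 CPM and 6.14, 6.52 and 7.77 CPM. The other 4 of its run had log2 fold changes of 0.40 to 0.47 and edgeR adjusted p-values of 0.0529 to 0.122. The number called in needles depended on single libraries. It was 0 without ammonium 400 ppm replicate 3, ammonium 720 ppm replicate 2 or nitrate 720 ppm replicate 2, 4 without ammonium 720 ppm replicate 1, 6 without nitrate 400 ppm replicate 1, and 1 when ammonium 400 ppm replicate 1, ammonium 720 ppm replicate 3, nitrate 400 ppm replicate 2, nitrate 400 ppm replicate 3 or nitrate 720 ppm replicate 1 was left out alone. It was also 1 without the low-complexity libraries. PpCO2_21579 lost its call under 13 of 18 alternatives, with an edgeR adjusted p of up to 0.147. Its fitted CO2 effect was averaged over the nitrogen forms, but its CPM values separated by CO2 level only within nitrate needles. These were 9.35, 10.1 and 10.5 CPM at 720 ppm and 5.18, 6.12 and 6.75 CPM at 400 ppm. Within ammonium needles they overlapped, at 12.5, 12.7 and 14.3 CPM at 720 ppm and 10.7, 13.5 and 15.6 CPM at 400 ppm.

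In stem, edgeR and limma-voom each called 0 of the 85 for CO2, and 0.0% of all transcripts tested with either tool, while DESeq2 called 9. That was 1.6% of the 46927 transcripts to which DESeq2 gave an adjusted p, and 8 of the 85 had none. At an unadjusted p under 0.05 edgeR gave 19, in 10 runs and single identifiers and 17 of them higher at 720 ppm, where 5.46% of all transcripts tested reached that level. Without stem ammonium 400 ppm replicate 3 edgeR called 2. PpCO2_24024 had the lowest adjusted p, 0.201 by edgeR, with 3.66 to 19.9 CPM (median 7.24) at 720 ppm and 1.73 to 6.76 CPM (median 3.58) at 400 ppm and a log2 fold change of 1.02 (SE 0.18). PpCO2_128797, a needle transcript, had 11.3 to 16.3 CPM (median 15.3) in stem at 720 ppm and 7.67 to 10.7 CPM (median 10.1) at 400 ppm, with 0.56 (SE 0.11), and its groups did not overlap. Among the 23 stem transcripts lower with ammonium, 18 had a positive CO2 effect in stem and the median log2 fold change was 0.20, against 9 of 25 and -0.08 in those higher with ammonium, and 49.9% positive and 0.00 over all transcripts tested. The difference between these sets was not tested, and the 23 include the pair from PpCO2_56983 to PpCO2_56985 and the run from PpCO2_115553 to PpCO2_115560.

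In roots, edgeR called 1 of the 85 for CO2, where 0.603% of all transcripts tested were called, and 22 reached an unadjusted p under 0.05, in 15 runs and single identifiers, where 9.76% of all did. The called transcript was PpCO2_28908, lower at 720 ppm. It had 5.11 to 7.11 CPM (median 6.49) at 720 ppm and 7.42 to 11.4 CPM (median 9.42) at 400 ppm, without overlap, a fitted log2 difference of -0.61 (SE 0.10) with an edgeR adjusted p of 0.0078. The call was kept under all 17 alternatives, with an adjusted p of at most 0.0488, by limma-voom. Without roots nitrate 720 ppm replicate 3, edgeR called 2 of the 85. The nitrogen ratio of PpCO2_28908 in roots was 1.08, and in needles its CO2 effect was -0.05 (SE 0.11).

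Of the 15 needle transcripts higher with ammonium, 13 had a positive CO2 effect fitted by edgeR in needles, 12 in stem and 13 in roots. Their median log2 fold changes were 0.36, 0.32 and 0.19, where those over all transcripts tested were 0.02, 0.00 and 0.02. Of all transcripts tested, 52.5, 49.9 and 53.4% had a positive effect. The count depended on how levels were scaled and averaged. In needles the 720 over 400 ppm ratio of CPM means was 0.81 to 0.96 for PpCO2_24033, PpCO2_24030, PpCO2_106181, PpCO2_84553 and PpCO2_165939. It was over 1 for the others of the 15. The 5 of the run from PpCO2_128794 to PpCO2_128805 are among the 15 and may not be independent of each other. The 22 needle transcripts lower with ammonium had 12, 15 and 10 positive effects and medians of 0.05, 0.10 and -0.02 in needles, stem and roots. The difference between these sets was not tested, since the sets were chosen on the same libraries. The plot of CO2 effects shows all 85 by set and organ.

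**Figure D4:**
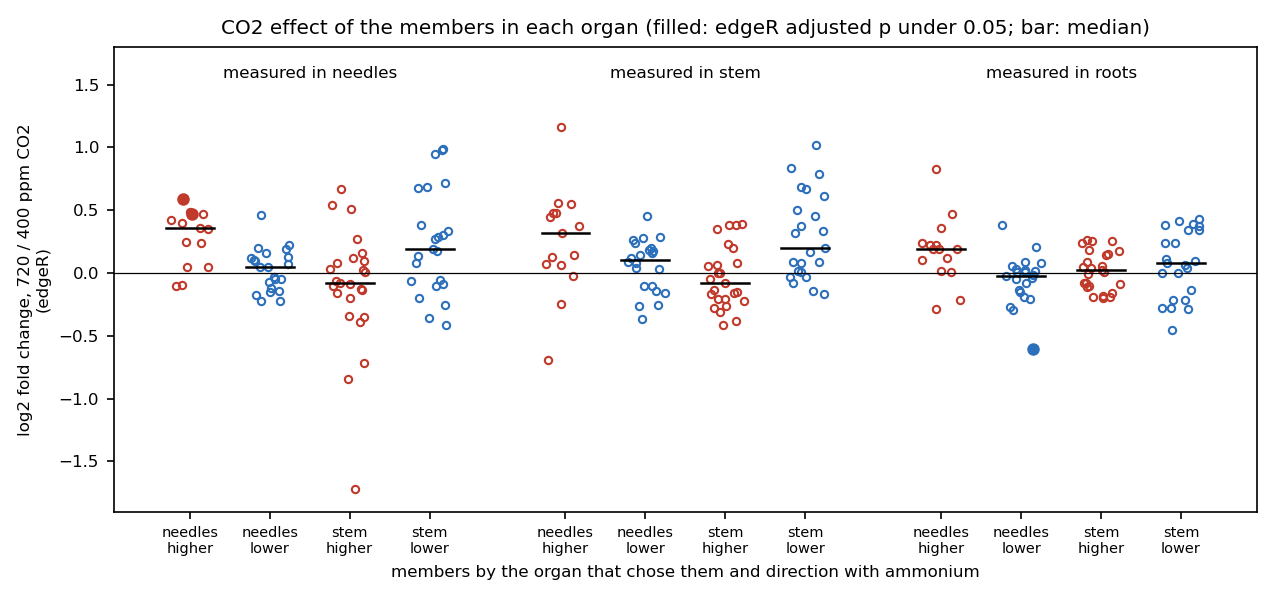
Log2 fold change between 720 and 400 ppm CO2 fitted by edgeR for each of the 85 transcripts in needles, stem and roots, grouped by the organ that chose them and their direction with ammonium; filled points have an adjusted p under 0.05 and bars are medians. The 3 filled points are 2 needle transcripts at 0.59 and 0.47 in needles and 1 at -0.61 in roots.

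Whether the ammonium effect itself differed between CO2 levels was tested as the interaction, the log2 ammonium effect at 720 ppm minus that at 400 ppm. EdgeR called 0 of the 85 in needles (0.0% of all transcripts tested), 0 in stem (0.0%) and 0 in roots (0.462%), and the numbers at an unadjusted p under 0.05 were 3 (3.7% of all), 4 (3.08%) and 3 (6.74%). Limma-voom called 0 in each organ (0.0% of all in each), and DESeq2 called 0 in needles (0.0351% of those with an adjusted p), 0 in stem (0.0343%) and 1 in roots (1.27%). In the organ that chose a transcript, the requirement that its libraries do not overlap works against a strong interaction.

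PpCO2_84553 had an interaction of -1.36 (SE 0.51) in needles, with an unadjusted p of 0.0185 by edgeR and an adjusted p of 1.00. PpCO2_21579 had -0.74 (SE 0.20) there, with needle ratios of 1.32 at 720 ppm and 2.21 at 400 ppm. PpCO2_129592, lower in ammonium needles, had 0.86 (SE 0.25) there, with an unadjusted p of 0.00308 and an adjusted p of 1.00 by edgeR and needle ratios of 0.880 at 720 ppm and 0.487 at 400 ppm. The lowest adjusted p in roots was 0.264 by edgeR, for PpCO2_178810 with 0.46 (SE 0.13). Its root values were 104, 112 and 117 CPM with ammonium and 96.8, 103 and 108 CPM with nitrate at 720 ppm, and 77.3, 80.7 and 86.9 CPM with ammonium and 93.6, 104 and 115 CPM with nitrate at 400 ppm. The root ratio of this transcript was 1.08 at 720 ppm and 0.783 at 400 ppm, and 0.931 over both.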

How the data were processed

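RNA sequencing measured transcript abundance in 36 libraries, 3 replicates of each of 12 groups. The authors deposited unscaled whole-number counts for each identifier in 1 table, whose 36 columns all matched a sample by name. Reads were paired, 150 bp long, per the labels' protocols, and the submitters' processing notes name bcl2fastq. How reads were aligned to which assembly, how they were counted, and what was done with multiply matching reads are not given in the sources used here. Such reads could be split between identifiers of similar sequence. The labels' treatment text describes another experiment, so titles, characteristics and the series design gave the groups.

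CPM was each count scaled to equal library totals. Each organ's 12 libraries were fitted together with 4 group means (8 residual degrees of freedom) in edgeR 4.0.16 under R 4.3.3, after filterByExpr with a minimum count of 10, with TMM scaling and robust quasi-likelihood F-tests. The nitrogen effect (ammonium minus nitrate) and the CO2 effect (720 minus 400 ppm) were each averaged over the other factor. P-values were two-sided and adjusted by Benjamini-Hochberg over all transcripts tested in the organ, with calls at an adjusted p under 0.05. All 85 transcripts passed the filter in every organ. They had to be expressed to be chosen, so no share is drawn from that. The scripts were tested on simulated data first. Library totals were 73414247 to 134836160 counts. They do not set the counting error of a single transcript, which is larger at low levels. The name low-complexity refers only to the share of even counts. These 7 libraries also had the most identifiers at 0, at 48.2 to 58.5% against at most 43.4% in the others, and whether their counts are independent fragments was not tested.

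The 85 transcripts, the low-complexity rule and the lists were chosen with earlier results of these data known. The transcripts named were the 5 with the largest fold per organ and direction and those with the smallest adjusted p among the called. Others were named after their values were seen. Correlations within runs used log2(CPM + 0.1). Alternatives were DESeq2 size factors, no low-count filter, DESeq2 1.42.0, limma-voom 3.58.1, the replicate number as a block, each library left out, the low-complexity libraries left out, and, for the rule, TMM scaling, a 2-fold minimum and a root window of 0.9 to its inverse. P-values set each difference against the spread between the pools of seedlings. If each CO2 level had a growth space of its own, that spread would not cover differences between the spaces.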

Additional observations from a re-analysis of the deposited data

Results flagged for a closer look

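In 4 of the 96 sets of 6 libraries examined for the named transcripts (the choosing organ and roots, each nitrogen form), 1 library lay apart, with a gap to its nearest neighbour past Dixon's critical value for 6 samples. Chance alone puts about 1 set in 20 past that limit. PpCO2_106181 reached 3.53 CPM in roots ammonium 720 ppm replicate 1, where the next of the ammonium libraries was at 1.57 CPM. PpCO2_128797 reached 8.97 CPM in needles nitrate 720 ppm replicate 2, against 7.30 CPM in the next nitrate library. PpCO2_147252 reached 6.71 CPM in stem ammonium 400 ppm replicate 2, a low-complexity library, against 3.92 CPM in the next, and 33.5 CPM in roots ammonium 400 ppm replicate 1, against 25.2 CPM in the next. The part of these libraries in the nitrogen ratios of the transcripts was not tested beyond leaving each library out.

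For 2 transcripts the ammonium and nitrate libraries separated in opposite directions in needles and in roots, where 2.19% of all transcripts that met the root part of the rule had root groups that did not overlap. The ratio of ammonium to nitrate of PpCO2_123591 was 0.618 in needles and 1.10 in roots. That of PpCO2_165939 was 1.69 in needles and 0.801 in roots. The rule used the needle values and the root ratio, so nothing is read from this count, and the difference between the organs was not tested.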

How the results depend on the processing

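The number of transcripts the rule found was 18 with a 2-fold minimum, 42 with a root window of 0.9 to its inverse, and 175, 54 of them among the 85, without the low-complexity libraries. It was 81 to 159 when each library was left out. Where libraries were left out, fewer columns had to separate, which is easier to meet. The nitrogen tests in the shoot organ that did not choose the transcripts also varied. In stem the number called was 1 with DESeq2 (1.01% of the transcripts it gave an adjusted p). It was 0 under each omission of a library (0.191 to 0.589% of all). In needles it was 2 with DESeq2 (1.36%), 0 without the low-complexity libraries (0.282%) and 1 under each omission (0.198 to 0.366%). For CO2 in needles the number was 1 with DESeq2 size factors (0.377% of all), 5 without the low-count filter (0.737%), 9 with DESeq2 (6.3%), 4 with limma-voom (0.881%), 1 without the low-complexity libraries (0.472%) and 0 to 6 under the omissions (0.119 to 0.955%). DESeq2 gave 53538 transcripts an adjusted p there, and 16 of the 85 had none. For CO2 in stem it was 1 without the low-count filter (0.0266%), 9 with DESeq2 (1.6%) and 0 to 2 under the omissions (0.0 to 0.107%). For CO2 in roots it was 3 with DESeq2 (2.06%) and 1 to 2 under the omissions (0.366 to 0.748%), and for the interaction in roots 1 with DESeq2 (1.27%). The causes were not tested. No value turned its direction. Among the named transcripts, 334 values kept their call or direction and 17 lost the call, 13 of them for PpCO2_21579, 3 for PpCO2_128800 and 1 for PpCO2_38005. Most of the 334 were ratios in the choosing organ. When libraries were left out, their direction was fixed by the rule, since groups that do not overlap cannot change order. Same-numbered libraries of different groups correlated at -0.07 to 0.15 within needles, between -0.10 and 0.18 within stem and at -0.07 to 0.13 within roots. Their medians were 0.0102, 0.0204 and 0.0749, against 0, -0.0184 and -0.0467 for libraries with different numbers. Of the same-numbered pairs, 2, 2 and 4 of 18 exceeded 0.1, against 0, 3 and 2 of 36 with different numbers. The highest correlations with different numbers were 0.09, 0.13 and 0.19. The numbers were not taken as a pairing, since not every same-numbered pair exceeded 0.1. With the replicate block, edgeR called 0 of the 85 for nitrogen in stem (0.26% of all transcripts tested) and 1 in needles (0.441%). For CO2 it then called 3 in needles (0.892%), 0 in stem (0.0%) and 1 in roots (0.958%). The interaction gave 0 in needles (0.0%), 0 in stem (0.0%) and 0 in roots (0.448%). Low levels limit what can be seen, since 64 of the 85 averaged under 10 CPM in the organ that chose them.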
